A study of Mus musculus with 4 samples.

Results

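The wild-type (WT) transcriptome of mouse E14 ESCs was described from 2 of the 4 RNA-seq libraries of the study. Its members were the WT replicates 1 and 2, chosen by their sample titles in the deposited tables of counts per gene and per transposable element (TE) subfamily. The gene table lists 55418 genes and the TE table lists 1072 subfamilies, and the other 2 libraries, from clones of Pim3-/- ESCs, were not used here. E14 is an ESC line derived from the inner cell mass of a mouse blastocyst. The cells carried no edited allele, had the strain label 12910la and grew without feeder cells on a gelatin coat in medium with serum and LIF, the cytokine that holds ESCs in self-renewal. RNA treated with DNase went into an mRNA kit primed with random oligonucleotides, and the paper's methods call the WT libraries separate biological samples of this line. The SD over 2 such libraries describes only the spread between them.

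Mouse ESCs keep a transcription network around POU5F1 (OCT4), SOX2 and NANOG, which holds the genes of embryonic lineages off while the cells divide quickly. Under serum and LIF the network is fed by STAT3 and held against FGF and ERK signals, which push the cells towards differentiation. Retrotransposons make up a large part of the mouse genome, and in ESCs most of them are held silent by KRAB zinc finger proteins, TRIM28 and the histone methyltransferase SETDB1.

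Replicate 1 held 23156247 gene counts and replicate 2 held 25668307. At least 1 count fell on 24239 and 24696 genes, respectively. Levels within a library were expressed as counts per 1000000 gene counts (CPM). Between genes, levels were set side by side per length, as transcripts per 1000000 (TPM) over genes with at least 200 nt of exon. Rankings by counts or CPM are the exception and are not scaled by length. A gene whose count did not exceed 3 in either library is said here to be at the floor. The floor is 0.130 CPM in replicate 1 and 0.117 CPM in replicate 2. It is a fixed limit that was not estimated from counting error, and a gene at the floor is not shown to be absent.

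Promoters of 4 genes show what the sequence looked like at the ends of the range of levels. Pou5f1 and Zfp42 (REX1) are pluripotency genes, Eef1a1 was the gene with the most counts, and Alb, the liver gene for albumin, had no count. Each sequence is the 250 bases before the RefSeq transcript start on GRCm38.p6, written 5′ to 3′ on the gene's strand, with CG dinucleotides, the sites of DNA methylation, in capitals. They lie at chr17:35505782-35506031 on the + strand for Pou5f1, at chr8:43307010-43307259 on the - strand for Zfp42, at chr9:78481725-78481974 on the - strand for Eef1a1 and at chr5:90460620-90460869 on the + strand for Alb.
Pou5f1: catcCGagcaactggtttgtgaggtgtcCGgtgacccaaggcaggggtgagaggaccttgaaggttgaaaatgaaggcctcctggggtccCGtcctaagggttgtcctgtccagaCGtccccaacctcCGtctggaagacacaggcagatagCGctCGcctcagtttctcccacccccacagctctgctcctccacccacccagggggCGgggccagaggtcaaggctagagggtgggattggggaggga
Zfp42: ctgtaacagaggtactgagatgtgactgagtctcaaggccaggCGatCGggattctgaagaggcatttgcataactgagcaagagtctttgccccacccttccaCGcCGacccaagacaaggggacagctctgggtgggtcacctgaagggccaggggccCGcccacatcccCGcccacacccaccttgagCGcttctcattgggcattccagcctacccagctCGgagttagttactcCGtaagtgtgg
Eef1a1: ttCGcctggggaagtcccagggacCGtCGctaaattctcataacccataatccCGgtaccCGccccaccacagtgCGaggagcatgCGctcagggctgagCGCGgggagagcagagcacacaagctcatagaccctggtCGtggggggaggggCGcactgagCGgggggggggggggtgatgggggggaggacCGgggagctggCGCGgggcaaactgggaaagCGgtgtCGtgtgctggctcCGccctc
Alb: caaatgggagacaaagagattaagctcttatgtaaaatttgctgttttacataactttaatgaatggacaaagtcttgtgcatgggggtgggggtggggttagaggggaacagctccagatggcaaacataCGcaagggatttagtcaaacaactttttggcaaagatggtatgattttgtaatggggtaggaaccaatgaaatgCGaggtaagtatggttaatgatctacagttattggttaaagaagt
The Eef1a1 promoter held 18 CG dinucleotides and 68% G and C. The promoters of Pou5f1 and Zfp42 held 8 and 9 CG dinucleotides, and the Alb promoter held 2 at 39.2% G and C.

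The 4 marker genes of ESCs were all far above the middle of the transcriptome. Pou5f1, which encodes OCT4, had 45110 and 48413 counts in replicates 1 and 2, or 2026 and 2055 TPM. Nanog, the homeodomain factor that stabilises self-renewal, had 18099 and 21146 counts, or 857 TPM ± 59.9 (SD, n = 2). Sox2, the partner of OCT4, had 4849 and 6734 counts, or 275 TPM ± 52.5 (SD, n = 2). These markers therefore stood in the order Pou5f1, Nanog and Sox2, and the ranges of their libraries did not overlap. Esrrb, an orphan nuclear receptor of the naive network, had 9303 and 11961 counts, or 172 TPM ± 23.6 (SD, n = 2). Among 21916 protein-coding genes with a TPM, Pou5f1 ranked 69, Nanog 156, Sox2 435 and Esrrb 734. On GRCm38 these genes lie at chr17:35506018-35510772 (Pou5f1), chr6:122707489-122714633 (Nanog), chr3:34650405-34652461 (Sox2) and chr12:86361117-86521628 (Esrrb), all on the + strand, and their levels count reads over all annotated exons, UTRs included.

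Protein-coding genes spread over the whole range of levels. Of 21992, 1158 (5.27%) reached at least 100 TPM in both libraries and a further 10409 (47.3%) at least 1 TPM in both. Another 3470 (15.8%) were above the floor but under 1 TPM in at least 1 library, and 6945 (31.6%) were at the floor in both, 5063 of them without a single count. The remaining 10 were too short for a TPM. The median protein-coding gene stood at 1.58 TPM, and the median of those with at least 1 TPM in both libraries at 12.3 TPM. Over genes of all kinds, 14231 of 55418 had at least 1 CPM in both libraries and 34827 were at the floor in both.

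A small number of genes held much of each library. Eef1a1, which delivers aminoacyl-tRNA to the ribosome, took 2.05% of the gene counts in replicate 1 and 2.12% in replicate 2. The 10 genes with the highest mean CPM took 6.43% ± 0.127 (SD, n = 2), the top 100 took 28.1% and the top 1000 took 61.5% ± 1.58 (SD, n = 2). Replicate 1 was the more concentrated library, with 29.2% of its counts on the top 100 genes against 26.9% in replicate 2. After Eef1a1 at 20857 CPM came Gapdh, the glycolytic enzyme, at 5911 CPM, Rpsa at 5775 CPM, the proline isomerase gene Ppia at 5545 CPM and Rpl4 at 5129 CPM. The others of the 10 were Rpl13a, the gene model Gm45713 that shares exons with Rpl13a, the chaperone gene Hsp90ab1, the ribosome scaffold gene Rack1 and Rpl6, between 3825 and 4559 CPM.

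**Figure D1:**
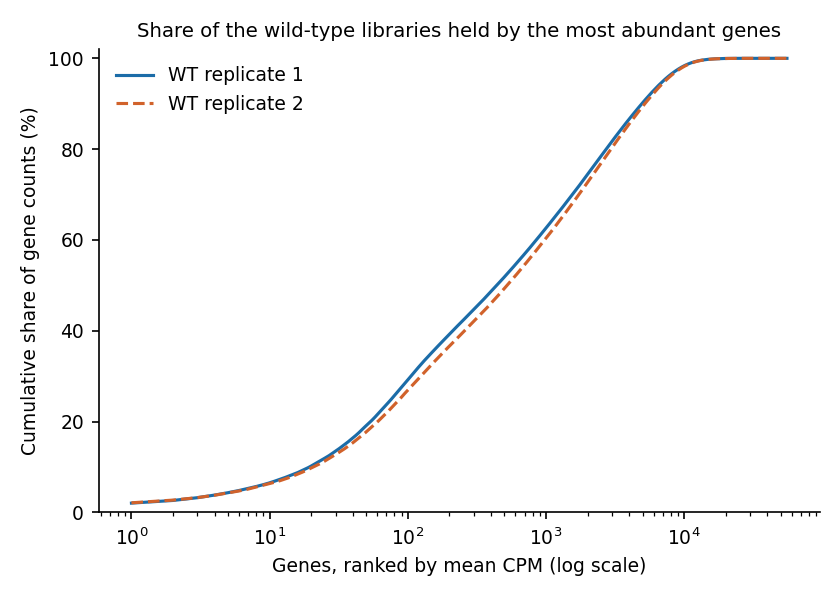
Cumulative share of gene counts (y axis, %) against genes ranked by mean CPM (x axis, log scale) in WT replicate 1 (solid line) and WT replicate 2 (dashed line). The top 10 genes held 6.52% and 6.34% of the counts, the top 100 held 29.2% and 26.9%, so that replicate 1 lay above replicate 2 at both points.

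Per length, the highest levels belonged to protein synthesis and to a single ESC gene. Among the 20 protein-coding genes with the highest mean TPM, 15 encoded ribosomal proteins, and among the top 100 there were 59, with 35.1% of all TPM on those 100 genes. Eef1a1 led at 20032 TPM ± 1125 (SD, n = 2) and Rplp1, of the ribosomal stalk, followed at 18306 TPM ± 1835 (SD, n = 2). Their ranges overlapped, since Rplp1 was above Eef1a1 in replicate 1 and below it in replicate 2. Dppa5a, which encodes an RNA-binding protein of early embryos and ESCs, was the third at 13752 TPM in replicate 1 and 12319 TPM in replicate 2. The top 20 also held Gm45713, whose counts may be reads of Rpl13a, with which it shares exon bases. The only other genes there outside the ribosome were Mt2, a metallothionein that binds zinc, at 5796 TPM, and Ptma, prothymosin alpha, at 5142 TPM.

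Genes of the translation and protein-turnover machinery were detected almost to the last member. All 85 genes of cytosolic ribosomal proteins had at least 1 TPM in both libraries, against 52.6% of all protein-coding genes, and 81 had at least 100 TPM, with a median of 2400 TPM. Rplp1, Rpl23a and Rpl19 led this family, and the exceptions, below 100 TPM in at least 1 library, were the paralogs Rpl3l at 4.90 TPM, Rpl22l1 at 47.3 TPM and Rps27rt at 97.9 TPM, together with Rpl29 at 69.4 TPM. Genes named as paralogs or with many processed pseudogenes are uncertain, because reads may have been split between near-identical copies. All 78 genes of mitochondrial ribosomal proteins also reached 1 TPM in both libraries, with a median of 80.3 TPM and Mrpl34, Mrpl52 and Mrpl12 at the top. Of 50 proteasome genes 47 did so, led by Psmb5, Psmb4 and Psma6. The same held for 8 of the 9 protein-coding genes of the CCT chaperonin, led by Cct5 at 955 TPM. Cct6a, annotated as a processed transcript, was not among these 9 and had 556 and 594 TPM. Initiation factors reached 1 TPM in both libraries in 53 of 55 genes, with Eif4a1, the RNA helicase of the cap-binding complex, highest at 1700 TPM. All 20 hnRNP genes, whose proteins package pre-mRNA, were above 1 TPM in both libraries, with Hnrnpa1 at 1260 TPM.

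Glycolysis breaks glucose down in the cytosol. All 19 genes of the glycolysis list passed 1 TPM in both libraries, against 52.6% of all protein-coding genes. Of these, 12 passed 100 TPM, against 5.27%, and the list median was 259 TPM. Gapdh had 3327 and 3521 TPM in replicates 1 and 2. Pkm, which encodes pyruvate kinase, had 1590 and 1821 TPM, and Eno1, which encodes enolase, had 1515 and 1633 TPM. Genes for the final step of fermentation were also high, with Ldha at 1484 TPM and Ldhb at 686 TPM. Of the glucose transporters, Slc2a3 stood at 259 TPM and Slc2a1 at 231 TPM, and their ranges overlapped. The lowest of the list was Aldoc at 19.5 TPM. All 37 genes encoded by mitochondrial DNA, including mt-Co1 and mt-Rnr2, were listed at 0 in both libraries. Since such genes are transcribed in every cell that respires, this is stated only as what the table lists, and its origin is not given in the sources used here.

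Among pluripotency genes, every member measured was expressed. The 15 genes of the core list were picked as ESC genes and so cannot be read as an independent test. All had at least 1 TPM in both libraries, against 52.6% of all protein-coding genes, and 10 had at least 100 TPM, against 5.27%. Their median was 275 TPM, 238 in replicate 1 and 310 in replicate 2, beside 1.58 TPM over all protein-coding genes. Below Dppa5a and Pou5f1 stood Nanog and Tdgf1, the NODAL co-receptor CRIPTO, at 824 TPM. The ranges of these neighbours overlapped. Utf1, a chromatin-bound factor of ESCs, had 727 TPM and Zfp42 had 708 TPM. The RNA-binding repressor Lin28a had 98.4 and 108 TPM. Sall4, a zinc finger factor that keeps Pou5f1 on, had 38.8 and 43.2 TPM, and Trim71, which represses mRNAs of differentiation, was lowest with 34.1 and 41.9 TPM. The lowest core gene was thus still above the median of expressed protein-coding genes.

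Naive-state genes, which mark the ground state of the inner cell mass, were likewise all above 1 TPM in both libraries. Of all protein-coding genes, 52.6% were at that level. Klf2, a Kruppel-like factor of the naive network, led the 15 genes with 416 and 423 TPM. Zfp57, which protects imprints, had 212 TPM and Tcl1, a cofactor of AKT kinases, had 204 TPM, and their ranges overlapped. Dppa3 (Stella), a maternal factor that limits DNA methylation, had 318 and 306 counts, or 34.4 TPM ± 2.31 (SD, n = 2). The list ended with Nr5a2 at 17.3 TPM and Gbx2 at 16.5 TPM. Klf2 was the gene of the Kruppel-like factors on this list with the highest level, since Klf5 had 44.1 TPM and Klf4 had 43.5 TPM, with overlapping ranges.

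Genes of the formative and primed state, through which ESCs pass on their way out of naive pluripotency, were lower. Of 14 such genes 12 (85.7%) reached 1 TPM in both libraries, against 52.6% of all protein-coding genes. None reached 100 TPM, and the median was 5.78 TPM. Dnmt3b, a de novo DNA methyltransferase, was highest with 48.4 and 66.5 TPM, followed by the tight-junction gene Cldn6 with 33.1 and 33.5 TPM. Otx2, a factor that drives the exit from the naive state, had 4.31 and 4.75 TPM, and Pou3f1 (OCT6) had 4.54 and 6.17 TPM. Fgf5, the classic marker of the primed epiblast, had no count in either library and so was at the floor.

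Genes of the 2-cell stage (2C) mark a rare totipotent-like state in ESC cultures. Of 21 genes on that list 10 reached 1 TPM in both libraries, none reached 100 TPM, and the median was 1.20 TPM. The share of 47.6% at 1 TPM compares with 52.6% of all protein-coding genes, and the median with 1.58 TPM, while 4.76% of the list and 31.6% of all were at the floor. Gm4340 led with 138 and 116 counts, or 9.59 TPM ± 1.56 (SD, n = 2), followed by Tdpoz4 with 3.63 and 3.43 TPM and Tcstv3 with 4.28 and 2.20 TPM. Zscan4d, whose family extends telomeres in ESCs, had 60 and 77 counts. Duxf3, of the DUX family that switches 2C genes on, had 3 and 5 counts, and Obox1 had none. Tcstv1 differed widely between the libraries, with 32 counts in replicate 1 and 3 in replicate 2. Many of these genes have near-identical copies, so counts of single members are uncertain. Whether few cells held high levels or many cells held low levels cannot be told apart in RNA of the whole culture.

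**Figure D2:**
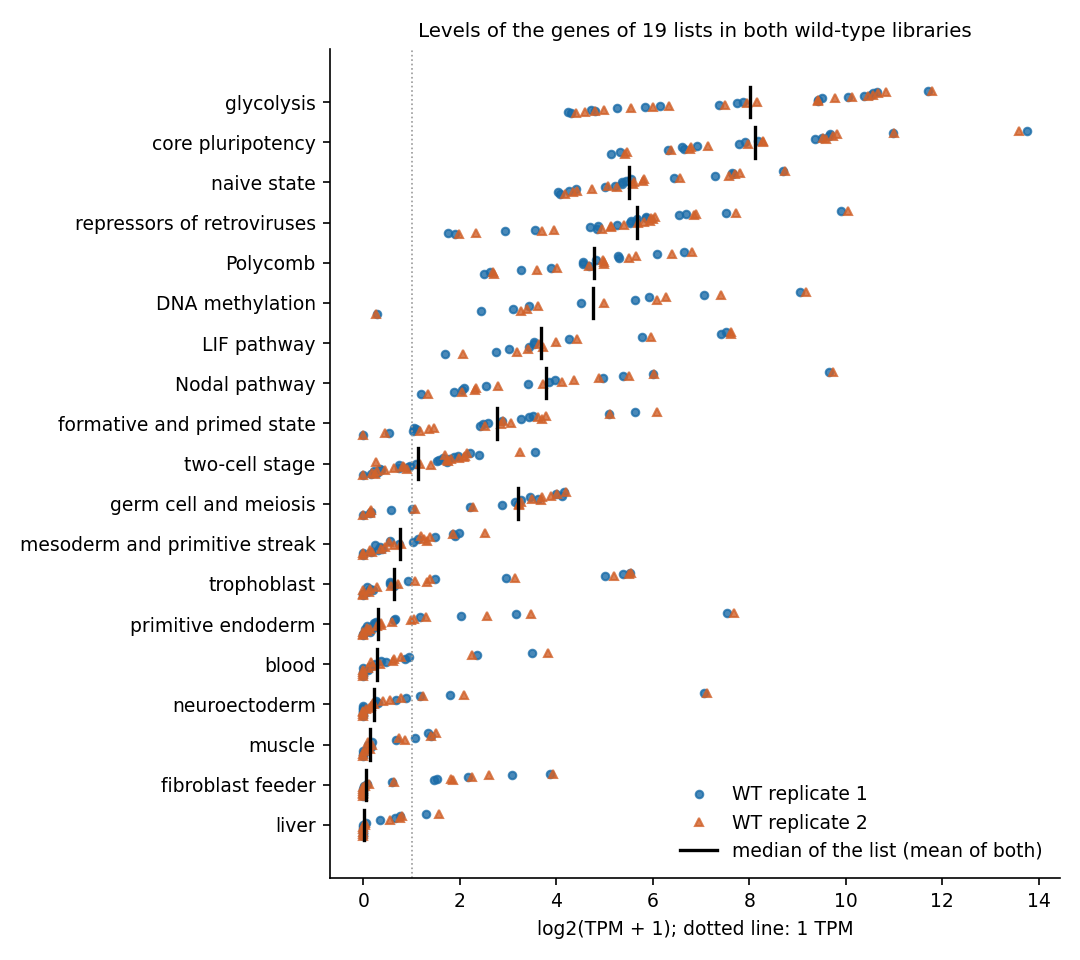
Levels of the genes of 19 lists as log2(TPM + 1) on the x axis, with 1 row per list. Circles are WT replicate 1, triangles WT replicate 2, the black line is the median of the list's mean TPM, and the dotted line marks 1 TPM. Core pluripotency genes lay around a median of 275 TPM, whereas liver genes lay around 0.0125 TPM.

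Most listed genes of the signal pathways that hold or release pluripotency reached 1 TPM in both libraries. Only RNA was measured, so the activity of these pathways is not shown. In the LIF pathway all 10 genes passed 1 TPM in both libraries, against 52.6% of all protein-coding genes, with a median of 11.9 TPM. The receptor chains Lifr and Il6st had 8.35 and 6.89 TPM, the kinase Jak1 had 11.0 TPM and the factor Stat3 had 19.4 TPM, whereas Socs3, a target of STAT3 that feeds back on the receptor, had 183 TPM. Of the PIM kinases, which are among the targets of LIF signalling, Pim3 had 183 and 195 TPM, Pim1 had 53.3 and 61.2 TPM and Pim2 had 10.5 and 11.5 TPM. The ranges of these 3 genes did not overlap.

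In the FGF and ERK pathway 15 of 18 genes (83.3%) reached 1 TPM in both libraries, against 52.6% of all protein-coding genes. The ligand Fgf4, which ESCs secrete, had 120 and 141 TPM. Of the receptors, Fgfr1 led with 10.0 and 12.5 TPM, Fgfr2 had 2.53 and 4.18 TPM, Fgfr4 had 3.73 and 4.26 TPM, and Fgfr3 was under 1 TPM. The kinase gene Mapk3 (ERK1) had 134 TPM, and the ETS factor Etv5, an ERK target, had the highest mean of the list at 145 TPM, with a range that overlapped those of Mapk3 and Fgf4. The feedback inhibitors Spry2 and Dusp6 had 26.5 and 10.1 TPM.

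All 12 genes of the NODAL pathway list reached 1 TPM in both libraries. The ligand Nodal had 42.3 TPM, its antagonists Lefty2 and Lefty1 had 29.3 and 5.37 TPM, and the factor Foxh1, which carries SMAD proteins to DNA, had 63.5 TPM. BMP genes passed in 10 of 11 cases (90.9%), against 52.6% of all protein-coding genes, with the ligand Bmp4 at 26.2 TPM. Id1, the BMP target that blocks neural differentiation, led that list with 251 and 252 TPM, far above Id2 at 7.66 and 8.34 TPM, Id3 at 6.39 TPM and Id4 at 1.32 TPM.

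Of 17 genes of the WNT pathway, 12 (70.6%) passed 1 TPM in both libraries, against 52.6% of all protein-coding genes. Ctnnb1, which encodes β-catenin, had 210 and 272 TPM and the kinase gene Gsk3a had 74.2 and 85.7 TPM, while Gsk3b had 7.33 and 7.53 TPM. Tcf7l1 (TCF3), the repressor of pluripotency targets, had 11.6 TPM and Tcf7 had 42.5 TPM, while Lef1 was at 0.403 TPM. Ligands were scarce, since only Wnt6 of the 19 Wnt genes passed 1 TPM in both libraries, at 4.15 and 4.22 TPM. The inhibitor Dkk1 had 0 and 1 counts.

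Kinases and deacetylases that the study places around Pim3 were expressed at moderate to low levels. Of the AMPK subunits, which form the energy sensor of the cell, the catalytic gene Prkaa1 had 14.0 TPM and Prkaa2 had 1.91 TPM. The regulatory genes Prkag1 and Prkab1 had 43.6 and 27.1 TPM, and Prkag3 was at the floor with 1 and 2 counts. Stk11 (LKB1), the kinase that activates AMPK, had 37.5 and 42.5 TPM. Of the class IIa histone deacetylases, Hdac5 had 745 and 888 counts, or 9.11 TPM, Hdac4 had 407 and 587 counts, or 3.07 TPM, and Hdac7 had 131 and 174 counts, or 2.21 TPM. Their ranges did not overlap on the TPM scale, although Hdac4 in replicate 1 (2.60 TPM) lay close to Hdac7 in replicate 2 (2.46 TPM). Hdac9 had 6 counts in replicate 1 and 1 in replicate 2.

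All 18 genes of the list of retrovirus repressors were above 1 TPM in both libraries. Trim28 (KAP1), the corepressor that KRAB zinc finger proteins bring to retroviruses, stood at 961 and 1059 TPM and was by far the highest. Hdac1 had 196 TPM and the demethylase gene Kdm1a (LSD1) 110 TPM. Setdb1, which writes H3K9me3 at these elements, had 1902 and 2449 counts, or 31.1 TPM. Chaf1a and Chaf1b, subunits of the histone chaperone CAF-1, had 28.8 and 39.2 TPM. Zfp809, the zinc finger protein that recognises the primer binding site of murine leukaemia virus, was lowest with 80 and 91 counts, or 2.83 TPM. Among 394 genes named Zfp, most of them for zinc finger proteins, 257 (65.2%) reached 1 TPM in both libraries, against 52.6% of all protein-coding genes. Only 3 (0.761%), Zfp42, Zfp57 and Zfp428, reached 100 TPM, against 5.27%.

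DNA methylation genes were led by Dnmt3l, the catalytically inactive cofactor of de novo methylation, with 527 and 578 TPM. Uhrf1, which brings maintenance methylation to replicated DNA, had 151 TPM and Dnmt1 had 68.0 TPM. Dnmt3a, at 10.5 TPM, lay below Dnmt3b. Of the TET dioxygenases, which oxidise methylcytosine, Tet1 had 21.7 and 30.5 TPM and Tet2 had 7.61 and 9.52 TPM, and their ranges did not overlap. Tet3 stood at 0.218 and 0.194 TPM. All 12 Polycomb genes were above 1 TPM in both libraries, against 52.6% of all protein-coding genes. The PRC2 subunit Eed had 105 TPM, Jarid2 had 74.9 TPM, Ezh2 had 41.3 TPM and Ring1 was lowest at 5.09 TPM.

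ESCs are known for a short G1 phase. All 22 genes of the cell cycle list passed 1 TPM in both libraries, against 52.6% of all protein-coding genes. Cdk4 led at 517 TPM, before the mitotic cyclin gene Ccnb1 at 279 TPM and Cdk1 at 179 TPM. Of the G1 cyclins, Ccne1 had 122 and 138 TPM, Ccnd3 had 88.9 TPM and Ccnd1 had 24.3 TPM, whereas Ccnd2 was the lowest of the list at 1.03 TPM. Mycn, at 50.2 TPM, was above Myc at 8.32 TPM, and the ranges of these paralogs did not overlap.

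Markers of other cell types were mostly weak. Of 123 genes on 9 such lists, 81 (65.9%) were under 1 TPM in both libraries, against 45.1% of all protein-coding genes, and 43 (35.0%) were at the floor, against 31.6%. The summed share of gene counts on them was 0.0792% in replicate 1 and 0.0854% in replicate 2. Fewer cells of a type and less RNA per cell cannot be told apart in these libraries. Liver genes had the lowest median, 0.0125 TPM, with Alb, Serpina1a, G6pc, Tat and Cyp3a11 at no count and Ahsg highest at 1.47 and 1.95 TPM. In the fibroblast list, which includes genes of feeder cells, 8 of 14 genes were at the floor, among them Col1a2 with 1 and 3 counts, Col3a1 with 1 and 0 counts and the uncounted Postn, Lum, Dcn and Prrx1. Thy1, a surface glycoprotein gene, had the highest level there at 13.9 TPM, and Col1a1 had 33 and 38 counts.

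Of 13 blood genes 6 (46.2%) were at the floor, against 31.6% of all protein-coding genes. Ptprc (CD45), Lyz2 and Hbb-bt had no count, and 11 of the list (84.6%) were under 1 TPM in both libraries, against 45.1%. Kit, the stem cell factor receptor, had 10.3 and 13.2 TPM and the erythroid factor Gata1 had 4.14 and 3.76 TPM. In muscle, 6 of 11 genes (54.5%) were at the floor, among them Myod1, Myog and Acta1. Myh3 had 1.68 TPM and Actn2 had 1.64 TPM.

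Of the germ layers, neuroectoderm had 7 of 15 genes (46.7%) at the floor and 12 (80%) under 1 TPM in both libraries. These shares compare with 31.6% and 45.1% of all protein-coding genes. Neurog2, Dcx, Pax3 and Six3 had no count, Pax6 had 99 and 89 counts at under 1 TPM, and Sox1 had 28 and 23 counts. Nes had 1.26 and 1.34 TPM and Neurod1 had 2.44 and 3.22 TPM. Tubb3, a tubulin gene used as a marker of neurons, was highest with 132 and 139 TPM. In mesoderm and primitive streak, T (brachyury) had 6 and 9 counts, Mixl1 had 7 and 7 counts, and Mesp2 was highest at 3.86 TPM, while Lhx1 and Msgn1 had no count. Eomes, which also marks trophoblast, had 74 and 69 counts, or 1.69 TPM.

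Extraembryonic genes showed the same mixture. Of 16 primitive endoderm genes, 11 (68.75%) were under 1 TPM in both libraries, against 45.1% of all protein-coding genes. Among them were Sox17 with 1 and 5 counts and Pdgfra with 16 and 31 counts, and Foxa2 had no count. Sparc, a matrix glycoprotein gene that is not restricted to endoderm, stood at 183 and 204 TPM, and the basement membrane genes Lamb1 and Col4a1 had 776 and 1056 counts and 228 and 385 counts. All 6 genes of this list with a mean of at least 1 CPM were higher in replicate 2 by CPM, at a median ratio of 1.37, as were 8360 of 12332 protein-coding genes, at a median ratio of 1.07. Of the trophoblast list, Cdx2 had 1 and 5 counts, Gata3 had 4 and 4, Elf5 had 3 and 5, and Prl3d1 and Tpbpa had none. The simple keratin genes Krt18 and Krt8 had 45.4 and 42.7 TPM and Tfap2c had 33.3 TPM.

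Germ cell genes stood apart from the other lists. Of 15 genes, 11 (73.3%) reached 1 TPM in both libraries, against 52.6% of all protein-coding genes. None reached 100 TPM, and the median was 8.26 TPM beside 1.58 TPM over all protein-coding genes. Mael, a piRNA pathway gene, had 16.8 and 17.3 TPM, Dmc1, the meiotic recombinase, had 14.9 and 15.2 TPM, and Zp3, of the egg coat, had 16.4 and 13.7 TPM. Ddx4 (VASA) had 9.88 and 12.0 TPM and Dazl had 6.32 and 8.37 TPM. Sycp3 of the synaptonemal complex had 8.26 TPM, whereas its partners Sycp1 and Sycp2 had 1.06 and 0.107 TPM, and Spo11, the nuclease that starts meiotic recombination, had no count. The difference between these lists is given as counts and medians and was not tested.

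Large families of receptors and structural proteins were almost silent. Of 1134 olfactory receptor genes, 1114 (98.2%) were at the floor and a single gene, Olfr985, reached 1 TPM in both libraries, at 7.47 and 7.36 TPM. Of 332 vomeronasal receptor genes 323 (97.3%) were at the floor, with Vmn1r53 highest at 2.61 and 2.89 TPM. All 57 keratin-associated protein genes were at the floor, as were 61 of 64 defensin genes and 36 of 38 taste receptor genes. These shares compare with 31.6% of all protein-coding genes. Of 39 Hox genes, which pattern the body axis, 26 (66.7%) were at the floor and 3 reached 1 TPM in both libraries, with Hoxc13 highest at 3.12 TPM.

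**Figure D3:**
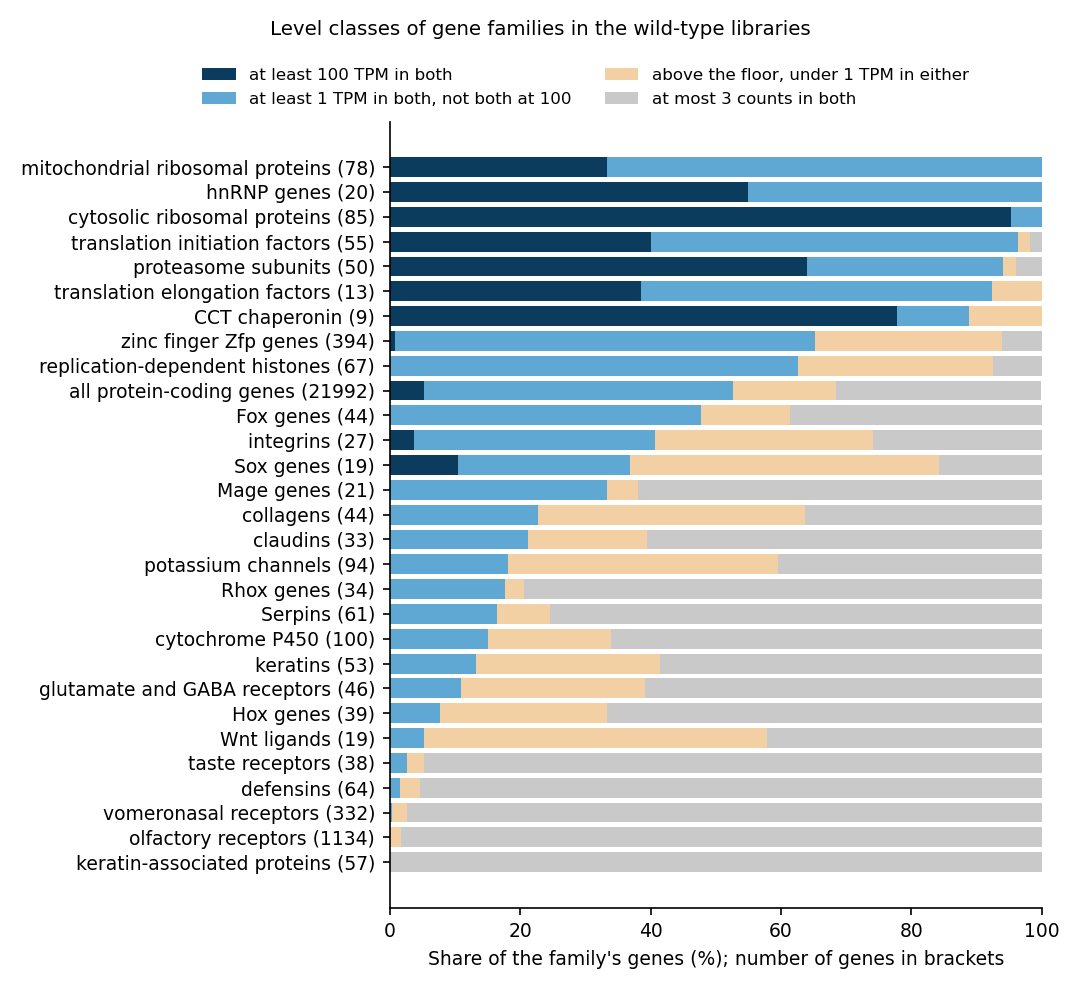
Share of the genes of each family (x axis, %) in 4 level classes, with the number of genes in brackets. Dark blue is at least 100 TPM in both WT libraries, light blue at least 1 TPM in both, sand above the floor but under 1 TPM in either library, and grey at most 3 counts in both. Of the ribosomal protein genes 95.3% were in the highest class, whereas 98.2% of olfactory receptor genes were at the floor.

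Families with varied roles held both expressed members and members at the floor. Of 19 Sox genes 7 reached 1 TPM in both libraries, against 52.6% of all protein-coding genes, and 3 were at the floor, against 31.6%. Sox2 was first, followed by Sox15 at 109 TPM and Sox12 at 20.4 TPM. Of 53 keratin genes 7 did so, led by Krt42 at 49.3 TPM beside Krt18 and Krt8. Of 33 claudin genes 7 did so, and Cldn4 was highest with 86.6 and 96.9 TPM. Of 27 integrin genes 11 did so and 7 were at the floor, led by Itgb1, the common β chain, at 117 TPM, followed by Itgb7 at 31.0 TPM and Itga5 at 24.6 TPM. Of 44 collagen genes 10 reached 1 TPM in both libraries, with Col18a1 at 68.1 TPM far above Col9a2 at 5.21 TPM. Of 34 Rhox genes, a homeobox cluster on the X chromosome, 6 did so, and Rhox5 led with 34.3 and 32.0 TPM. Cytochrome P450 genes were at the floor in 66 of 100 cases, against 31.6% of all protein-coding genes. Cyp51, which acts in cholesterol synthesis, was highest at 21.8 TPM.

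Replication-dependent histone genes took 0.0152% ± 0.000880 (SD, n = 2) of the gene counts. Of 67 genes 42 (62.7%) reached 1 TPM in both libraries and 5 (7.46%) were at the floor, against 52.6% and 31.6% of all protein-coding genes, and their median was 1.99 TPM beside 1.58 TPM. Most of their mRNAs end without a poly(A) tail, and whether that set their level here was not tested. The highest of them were Hist1h1c, Hist1h2bc and Hist3h2a, with Hist1h1c at 80.4 TPM.

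Imprinted and sex-linked genes described the line further. Of 20 imprinted genes 18 (90%) passed 1 TPM in both libraries, against 52.6% of all protein-coding genes. Snrpn had 195 and 197 TPM, Phlda2 had 105 and 106 TPM and Mest had 2148 and 2605 counts, or 59.0 TPM. Of the reciprocally imprinted neighbours, H19 had 15.0 TPM and Igf2 had 1.89 TPM, and of the Dlk1 locus Meg3 had 13.6 and 15.8 TPM and Rian 22.7 and 28.6 TPM, while Dlk1 itself had 38 and 40 counts, or 0.676 TPM. Plagl1 was lowest with 11 and 40 counts.

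On the X chromosome 388 of 948 protein-coding genes (40.9%) reached 1 TPM in both libraries, against 53.7% on autosomes. The median of those expressed was 8.86 TPM, against 12.4 TPM over expressed autosomal genes. By the mean of both libraries it lay below the median of each single autosome, and these medians ran from 9.14 to 16.3 TPM. In replicate 1 the X chromosome had 8.15 TPM and chromosome 13 had 8.95 TPM. In replicate 2 the order was reversed, with 9.76 TPM on the X chromosome and 9.38 TPM on chromosome 13. Xist, the RNA that coats an inactive X, had 89 and 95 counts, or 0.503 TPM, below its antisense partner Tsix at 1.51 TPM. These genes overlap, so their counts may share reads. On the Y chromosome 4 of 183 protein-coding genes reached 1 TPM in both libraries. Eif2s3y had 622 and 609 counts and Ddx3y had 300 and 337 counts. By mean TPM each was below its X-linked copy, Eif2s3x at 82.8 TPM and Ddx3x at 99.3 TPM. The other Y-linked genes, named after their values were seen, were Uba1y with 175 and 283 counts and the gene model Gm47283 with 1393 and 1592 counts.

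Promoter sequence varied with the level of the gene. A RefSeq promoter was found for 16522 of the 21992 protein-coding genes, and the 250 bases before the start were read. At least 10 CG dinucleotides were present in 82.6% of promoters of genes with at least 100 TPM in both libraries, in 75.4% of the other genes with at least 1 TPM in both, in 48.0% of those above the floor but under 1 TPM and in 10.9% of those at the floor, against 52.1% of all. Promoters at the floor also had less G and C, with a median of 45.2% against 59.2% for the most abundant genes. Olfactory receptor promoters held a median of 1 CG dinucleotide, and 416 of 931 held none, beside 2 in the Alb promoter shown above. Among the ribosomal protein genes 54 of 65 promoters held at least 10. Of the core pluripotency genes 5 of 10 promoters (50%) did so, against 52.1% of all. The Pou5f1 and Zfp42 promoters, with 8 and 9, were under this limit although both genes were above 100 TPM.

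Short motifs differed less regularly. TATAAA, searched on both strands, occurred in 24.1% of promoters at the floor, in 7.25% of those at 100 TPM or more and in 11.9% of all promoters. It was present in 41 of the 51 promoters of keratin-associated protein genes. CCAAT, also searched on both strands, was found in 35.0% of promoters at the floor, in 40.8% of those at 100 TPM or more and in 36.0% of all, and it occurred in the Pou5f1, Zfp42 and Alb promoters but not in that of Eef1a1. The letters CTTT on the gene's strand, within the 10 bases on either side of the start, were found in 15 of 65 ribosomal protein genes (23.1%) and in 6.75% of all promoters. These are matches of letters and do not show binding.

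Reads on TEs were few beside those on genes. The TE table held 546500 counts in replicate 1 and 680595 in replicate 2, which is 2.36 and 2.65 counts per 100 gene counts. Of 1072 subfamilies 736 had at least 10 counts in both libraries, 165 were at the floor and 84 had no count. A TE count adds the reads over all genomic copies of a subfamily. Levels are therefore given as shares of TE counts, which are not scaled for the number or length of copies, and reads of copies inside the exons or introns of genes cannot be told apart from transcripts that start in the TE.

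SINEs, short elements copied by the enzymes of LINEs, took most TE counts, with 56.2% in replicate 1 and 57.9% in replicate 2. LTR elements, which include the endogenous retroviruses, took 31.0% and 29.3%, LINEs 10.3% and 10.2%, and DNA transposons 2.47% and 2.60%. The SINE families Alu (rodent B1), B2 and B4 took 24.9%, 15.4% and 12.5% as means of both libraries. Among LTR families ERVK led with 15.8%, followed by ERVL-MaLR with 9.57%, ERVL with 2.69% and ERV1 with 2.02%, and among LINEs the L1 family took 8.77%. The subfamilies without a class in the study's table, 94 of them, took 0.0611%.

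The 10 subfamilies with most counts took 36.8% ± 0.721 (SD, n = 2) of TE counts, and 9 of them were SINEs. B3 led with 32565 and 42436 counts, or 6.10% of TE counts, followed by ID_B1 with 4.27%, RSINE1 with 3.99%, B1_Mus1 with 3.98% and B2_Mm2 with 3.66%. The exception was MMETn-int, the internal part of an early transposon (ETn), a non-autonomous ERVK element, with 18245 and 22545 counts, or 3.33% of TE counts.

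**Figure D4:**
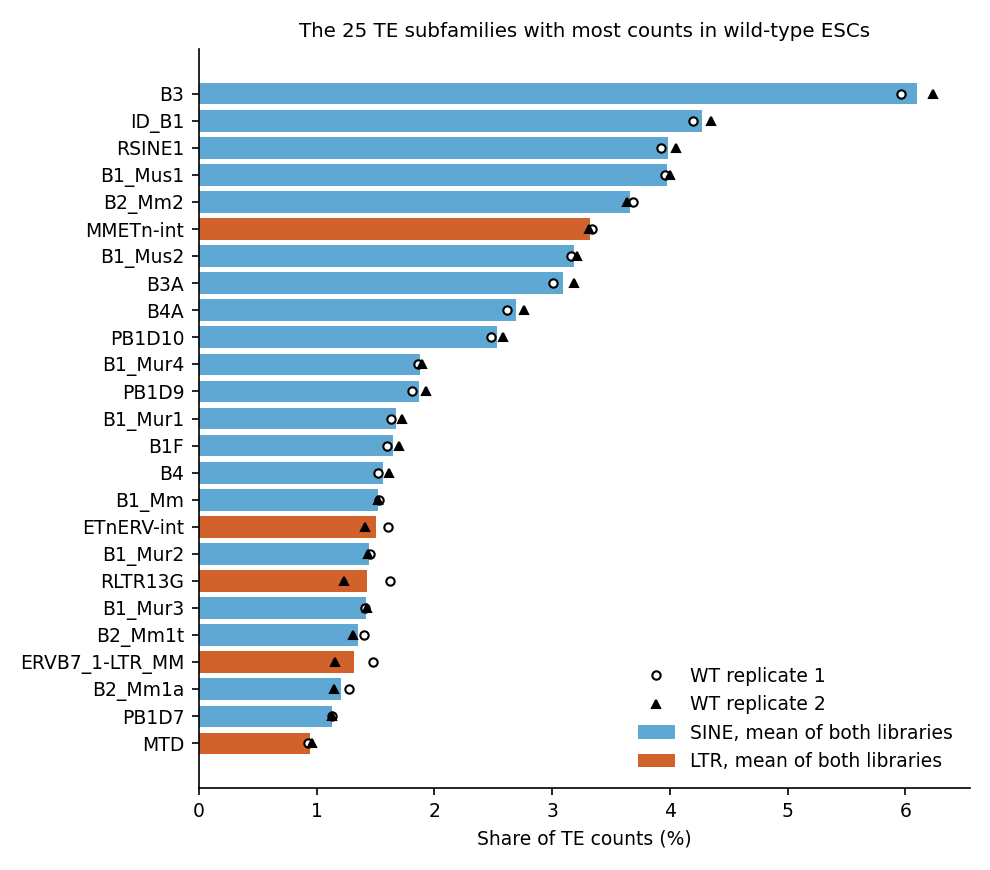
Share of TE counts (x axis, %) of the 25 TE subfamilies with most counts in WT ESCs. Bars are means of both libraries, blue for SINEs and orange for LTR elements, with open circles for WT replicate 1 and filled triangles for WT replicate 2. B3 stood at 6.10%, and MMETn-int was the LTR subfamily with most counts at 3.33%.

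Among LTR elements the ETn group stood out from the IAP group. The 4 internal parts with ETn in their names took 4.99% of TE counts in replicate 1 and 4.77% in replicate 2. The 25 subfamilies named IAP took 0.825% and 0.780%. The IAP group includes LTRs such as IAPLTR1_Mm, whereas RLTRETN_Mm, at 0.383%, was not counted in the ETn group. After MMETn-int, the highest LTR subfamilies were ETnERV-int with 8759 and 9623 counts and RLTR13G with 8879 and 8367 counts. IAPEz-int, the body of the intracisternal A particle, had 1731 and 2160 counts, or 0.317%. MERVL-int (MuERVL), the retrovirus that marks the 2C state, had 1132 and 1584 counts, or 0.220%, and its LTR MT2_Mm had 966 and 1118 counts, or 0.171%.

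Of the LINEs, the 6 mouse subfamilies named L1Md took 1.55% and 1.36% of TE counts. L1Md_F2 was highest with 3683 and 4055 counts, followed by Lx8 with 3129 and 4037 and L1_Mus1 with 2752 and 3044. L1Md_T and L1Md_A, which hold the young and mobile copies, had 0.336% and 0.252%, and L1Md_Gf had 35 and 45 counts. The DNA transposons were led by the hAT-Charlie elements URR1A, URR1B and MER5A, with 0.347%, 0.328% and 0.142%.

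The WT libraries were close to each other for all but weak genes. Of 14645 genes with a mean of at least 1 CPM, 188 (1.28%) differed at least 2-fold by CPM, 142 higher in replicate 2 and 46 higher in replicate 1. Only 1 of these had a mean of at least 10 CPM. It was Gm22774, a miRNA gene model with 1217 and 672 counts. None of the 1815 genes at 100 CPM or more differed 2-fold. With 1 library on each side these are ratios without a test. Of 507 TE subfamilies with at least 100 counts, 0 (0%) differed 2-fold. RLTR13D6, with 83 and 171 counts, and RLTR10B2, with 74 and 47, lay at the ends of that range.

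Small differences between the libraries followed gene length. Among protein-coding genes with a mean of at least 1 CPM, the median log2 ratio of replicate 2 to replicate 1 was -0.13 for the 360 genes with up to 1000 nt of exon and 0.21 for the 2138 genes above 8000 nt, and 28.3% and 86.5% of them were higher in replicate 2. With the TMM factors of edgeR every log2 ratio was lower by 0.08, and these shares became 21.4% and 76.2%. All 85 ribosomal protein genes had fewer CPM in replicate 2, at a median ratio of 0.870 by column totals, and all were also lower there with TMM factors and with the size factors of DESeq2. Their share of gene counts was 18.0% and 15.9% in replicates 1 and 2. Core pluripotency genes were higher in replicate 2 in 11 of 15 cases by column totals and in 7 of 15 by TMM factors, beside 8360 and 6523 of all 12332 protein-coding genes. What moved with length was not tested, and RNA quality is not given in the sources used here.

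**Figure D5:**
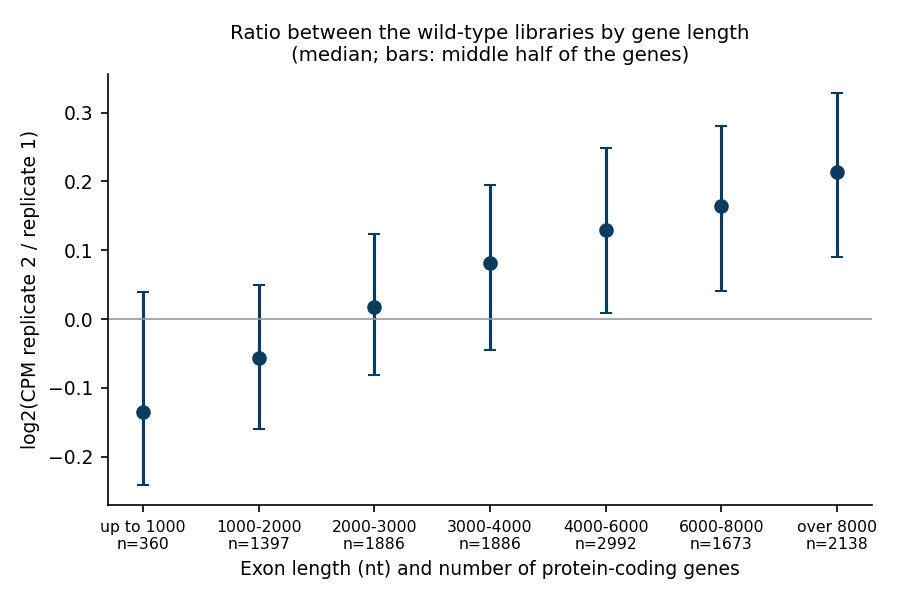
Median log2 ratio of CPM in WT replicate 2 to replicate 1 (y axis) for protein-coding genes grouped by exon length in nt (x axis, with the number of genes). Bars span the interquartile range of the genes. The median ran from -0.13 for genes up to 1000 nt to 0.21 for genes over 8000 nt.

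Among genes with a mean of at least 10 CPM, those furthest above in replicate 2 were AC125059.3, Man2c1os, Tdg, St7l and 3010003L21Rik, at ratios of 1.85 to 1.93. Tdg, a DNA glycosylase gene that completes active demethylation, had 235 and 482 counts. Those furthest below, after Gm22774, were the processed pseudogenes Rps2-ps13, Gm8430, Rpl23a-ps3 and Gm10704, at ratios of 0.509 to 0.599.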

How the data were processed

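RNA of 2 WT and 2 Pim3-/- samples was sequenced by GENEWIZ after an mRNA-seq library kit, and the WT libraries were used here. The deposited tables hold whole-number counts, not normalised, for genes and for TE subfamilies. The paper names Cutadapt, Hisat2, mm10, Ensembl genes and RepeatMasker TEs, whereas the submitters' processing notes list Trim Galore, STAR and featureCounts, so the mapper differs between sources. Use of strand and of reads with several locations is not given in the sources used here. Near-identical copies are therefore uncertain, and so are overlapping and antisense genes.

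CPM are counts per 1000000 counts of the table. TPM used exon lengths from the GENCODE annotation of GRCm38 for all symbols; 6789 genes under 200 nt had no TPM. Means are of 2 libraries with SD, and no test was run. Members and gene lists were chosen with earlier results of these data known. Named genes were the markers, the highest, lowest and uncounted genes of each list, the 3 highest of each family, and the genes and TEs with the highest levels or the largest ratio between libraries. Some of these are not reported here, and other list members were named for their role after their values were seen. Scaling alternatives used edgeR 4.0.16 and DESeq2 1.42.0 in R 4.3.3, and other steps ran in Python 3.11.15 with pandas 2.3.3 and matplotlib 3.10.9. The scaling was tested on simulated counts. TE classes came from the study's table. Depth was 23156247 and 25668307 gene counts.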

Additional observations from a re-analysis of the deposited data

How the results depend on the processing

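In all, 10 values were recomputed under 51 alternatives. Of these, 43 recomputed values stayed within the spread between replicates or within 1.5 times the count. Part of them could not have moved, so this number is no measure of stability. Totals without mitochondrial genes were unchanged, since none of these genes had a count. A single library always lies within the SD around the mean of both. The replicate-alone shares of ribosomal protein genes, LTR elements and TE counts per gene count therefore had to stay. Without gene models named Gm or Rik, 10297 genes were at the floor. Leaving out genes that share exon bases with another gene, an alternative added after seeing the data, left 8080 genes at 1 CPM in both libraries. Ranked by TPM, the 10 highest genes took 9.97% of all TPM, and ribosomal protein genes took 24.2% of all TPM. The pluripotency median was 206 TPM when TPM included genes of every length. LTR elements took 26.5% of TE counts without the 4 ETn internal parts. Both alternatives were added after seeing the data. Of genes at least 2-fold apart, 1 was left at a mean of at least 10 CPM and 6965 were counted with no filter.

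With either replicate alone, the values ran from 14509 to 14748 genes at 1 CPM, 35583 to 36070 genes at the floor, 6.35 to 6.54% on the top 10 genes, 15.9 to 18.0% on ribosomal protein genes, 238 to 310 TPM for the pluripotency median, 83 to 84 lineage genes under 1 TPM, 2.36 to 2.65 TE counts per 100 gene counts and 29.3 to 31.0% on LTR elements. Mitochondrial genes were listed at 0 in each. The count of genes 2-fold apart needs both libraries and could not be made with either left out. No paired analysis was possible because the result comes from no test and a single group was described. Depth limits statements on genes at the floor, and 2 libraries limit every SD.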

Other observations

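Protein-coding genes held 93.2% ± 0.273 (SD, n = 2) of the gene counts. Genes annotated as antisense held 1.39%, processed pseudogenes 1.35%, miRNA genes 1.14% and lincRNA genes 1.12%. Of the long non-coding RNAs of nuclear bodies, Malat1 had 33.0 and 41.7 TPM and Neat1 had 8.07 and 10.5 TPM. The ESC transcripts Platr10 and Lncenc1 had 184 and 99.3 TPM, and the snoRNA hosts Snhg8, Snhg5 and Gas5 had 141, 89.1 and 39.6 TPM. Rmrp and Rpph1, short RNAs of RNA-processing enzymes, were lower in replicate 2, with 85 and 47 counts and with 88 and 35 counts.

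The gene models Gm42418 and AY036118 and the rRNA gene model CT010467.1 were also lower in replicate 2. They had 70440 and 54107 counts, 59580 and 46074 counts, and 91178 and 71403 counts. Gm42418 and AY036118 were the long non-coding models with the highest mean CPM, followed by Gm28037, Gm45774 and Gm45552.

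Counts of several such models were close to those of a neighbour. Gm28037 had 38153 and 37562 counts, and Rpl24, with which it shares exon bases, had 38149 and 37549. Gm45774 had 34724 and 34710 counts, and Mt2, on the opposite strand, had 34717 and 34704. Gm26825 and Gm15459, on opposite strands, had equal counts of 21729 and 30185. Gm19553, antisense to Pou5f1, had 31357 and 33082. Of 2285 overlapping pairs with at least 100 counts in each gene and library, 120 agreed within 1% in both libraries, 7 of them on opposite strands, so the count of such a gene is not separate evidence of its own transcript. Likewise 103 of the 110 miRNA genes with at least 1 CPM in both libraries, and 616 of 645 antisense genes, share exon bases with another gene.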
